A study of Mus musculus with 24 samples.

Results

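The genes of the LIF, JAK and STAT3 pathway were followed through 24 bulk RNA-seq libraries of mouse embryonic stem cells (ESCs) and of the expanded potential stem cells (EPSCs) made from them. They are 10 genes, Lif, Lifr, Il6st, Jak1, Jak2, Stat3, Socs3, Pim1, Pim3 and Junb, taken by their symbol out of the 23095 genes of one table and the 25476 genes of the other, and all 10 were measured in every library and passed the filter of at least 2 reads in a table. The first table holds J1, a wild-type mouse ESC line, as ESCs, as D-EPSCs and as L-EPSCs. The second holds tet-off ESC lines that carry an Oct4 (ZHBTc4), Sox2 (2TS22C) or Nanog (NgcKO) Tet-off knockin, here called Oct4-, Sox2- and Nanog-cKO, each as ESCs, as L-EPSCs without doxycycline (Dox) and as L-EPSCs with Dox. In these lines the endogenous gene is deleted and a transgene stands in for it until Dox shuts the transgene off, and each is a single established line, so line and targeted gene cannot be told apart. Every group has 2 replicates.

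LIF itself was in all the media described. J1 ESCs were kept in serum medium with LIF at 1000 units/mL, the GSK3 inhibitor CHIR99021 at 3 µM and the MEK inhibitor PD0325901 at 1 µM. D-EPSC medium held LIF at 1000 units/mL and CHIR99021 at 3 µM with dimethindene maleate at 2 µM and minocycline hydrochloride at 2 µM, and no MEK inhibitor. L-EPSC medium held LIF at 1000 units/mL, CHIR99021 at 3 µM, PD0325901 at 1 µM, the SRC inhibitor A-419259 at 0.3 µM, the tankyrase inhibitor XAV939 at 5 µM, JNK inhibitor VIII at 4 µM and the p38 inhibitor SB203580 at 10 µM. The sources used here give neither a medium for the tet-off ESCs of their own nor the dose and the duration of Dox for these libraries. The labels give feeder cells as an option for ESCs and L-EPSCs. The study's methods say that D- and L-EPSCs were taken off feeder cells for some passages ahead of RNA-seq, and for the ESC libraries the sources used here do not say which option was used.

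LIF is a cytokine of the interleukin-6 family. It binds its receptor LIFR, which pairs with the shared signalling subunit gp130, the product of Il6st. The kinases JAK1 and JAK2 sit on the receptor tails and phosphorylate STAT3, which then enters the nucleus and binds DNA. Among the genes STAT3 is known to switch on are Socs3, whose product binds gp130 and the JAKs and damps the signal, and Pim1 and Pim3, which encode serine/threonine kinases that favour survival and self-renewal. Junb encodes an AP-1 transcription factor that is an early response gene of LIF and of other growth signals. In mouse ESCs this pathway is best known for holding the undifferentiated state in serum culture. Messenger RNA levels of these genes do not measure phosphorylated STAT3, which was not part of these data.

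The DNA in front of these genes can be read on NCBIM37, the build the authors counted on. STAT dimers are known to bind the palindrome TTCNNNGAA, and the 250 bases before the start of every protein-coding transcript were searched for it, on both strands, which for a palindrome are the same letters. It was present in 6.52% of 46013 such windows. Of the 18 windows of the 10 genes 1 held it (5.56%), that of Socs3. Of the 118 windows of 50 other pathway genes 6 did (5.08%), and they belonged to 4 genes, Cish, Socs2, Il11ra1 and Sbno2. The stricter TTCCNGGAA, a subset of the same matches, was in 0.956% of all windows, 5.56% of those 18 and 3.39% of those 118. The genes with it were Socs3, of the 10, and Socs2 and Cish, of the others. These 3 encode related inhibitors of cytokine signalling, and their windows are printed here with the matches in capitals because the levels of these genes moved in different comparisons below. The Socs3 window lies at chr11:117830501-117830750, minus strand, with the match at chr11:117830553-117830561, 61 bases before the start, and another annotated Socs3 transcript without a coding sequence has an exon at the far end of it. The Socs2 window is chr10:94879492-94879741, minus strand, with matches 66 and 55 bases before the start. The Cish window is chr9:107198791-107199040, plus strand, before the most upstream of the Cish starts that hold a match, with matches 51 and 40 bases before it. Each sequence runs 5′ to 3′ on the strand of the gene.
Socs3: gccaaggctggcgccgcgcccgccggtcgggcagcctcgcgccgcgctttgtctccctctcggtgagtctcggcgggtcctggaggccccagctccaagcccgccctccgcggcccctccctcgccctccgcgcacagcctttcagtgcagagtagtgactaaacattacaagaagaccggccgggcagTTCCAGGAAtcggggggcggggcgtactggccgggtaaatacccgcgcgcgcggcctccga
Socs2: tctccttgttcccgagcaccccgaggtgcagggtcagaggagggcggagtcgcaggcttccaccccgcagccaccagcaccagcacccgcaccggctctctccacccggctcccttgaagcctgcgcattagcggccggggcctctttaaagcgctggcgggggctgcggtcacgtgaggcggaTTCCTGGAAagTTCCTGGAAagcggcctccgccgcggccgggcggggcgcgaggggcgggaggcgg
Cish: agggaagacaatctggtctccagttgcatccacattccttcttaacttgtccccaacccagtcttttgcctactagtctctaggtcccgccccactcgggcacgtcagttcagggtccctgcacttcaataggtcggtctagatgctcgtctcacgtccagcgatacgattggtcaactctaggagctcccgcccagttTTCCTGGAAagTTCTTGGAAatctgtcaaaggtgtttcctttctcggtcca
A match is a run of letters and not a measured binding site, and no match in a window says only that the letters are not there.

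The genes lie on NCBIM37 as follows. The gene for the ligand, Lif (ENSMUSG00000034394), spans bases 4157560 to 4172517 of chromosome 11. The receptor genes Lifr (ENSMUSG00000054263) and Il6st (ENSMUSG00000021756) span bases 7079559 to 7147489 of chromosome 15 and bases 113265216 to 113297068 of chromosome 13. The kinase genes Jak1 (ENSMUSG00000028530) and Jak2 (ENSMUSG00000024789) span bases 100824972 to 100937887 of chromosome 4 and bases 29326318 to 29387570 of chromosome 19. Stat3 (ENSMUSG00000004040) spans bases 100746412 to 100800854 and Socs3 (ENSMUSG00000053113) bases 117827393 to 117831361, both of chromosome 11. Pim1 (ENSMUSG00000024014) spans bases 29627757 to 29632390 of chromosome 17, Pim3 (ENSMUSG00000035828) bases 88692616 to 88696150 of chromosome 15 and Junb (ENSMUSG00000052837) bases 87500811 to 87502617 of chromosome 8. Exons of 3 of the genes overlap those of a gene on the other strand. Pim1 shares 468 exon bases with the lincRNA gene Gm16912, Stat3 shares 72 with Stat5a and Jak1 shares 4 with Raver2, and because the strand setting of the counting is not stated, reads from these stretches cannot be told apart.

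The libraries held 10807631 to 15069899 reads on genes. Values are normalized counts, that is reads divided by the size factor of the library, and replicates are given in the order of their numbers. A gene is said to have risen or fallen where limma gave an adjusted p under 0.05 over all genes tested and a log2 fold change beyond 0.6, or beyond 1 for Dox, on the scale of log2(normalized count + 1). With 2 replicates against 2 an exact permutation test cannot go below p = 0.333, and the p-values rest on a spread pooled over all groups of a table. The labels do not say that replicates are separate cultures, so the p-values measure the spread between these samples, which may be technical.

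The libraries were checked against their labels. In the L-EPSCs Dox took Pou5f1 (Oct4) of the Oct4-cKO line from 6368 ± 73.7 to 173 ± 15.5 normalized counts (mean ± SD, n = 2), Sox2 of the Sox2-cKO line from 4833 ± 188 to 50.1 ± 4.33 and Nanog of the Nanog-cKO line from 8983 ± 192 to 3139 ± 38.2. The J1 libraries hold much RNA of other cell types. Summed over 9 fibroblast markers, with none at 0, J1 ESCs held 90160 to 92362 normalized counts, D-EPSCs 56156 to 56449 and L-EPSCs 18699 to 19305, against 188 to 621 over the 8 of them listed in the tet-off table, in which Lum was at 0 in 8 of 9 groups. Summed over 9 macrophage markers, with none at 0, they held 4002 to 4128 in J1 ESCs, 21727 to 22167 in D-EPSCs and 17226 to 17286 in L-EPSCs. In the tet-off libraries that sum was 344 to 3178, with C1qa at 0 in 8 of 9 groups and Tyrobp in 8 of 9. A set of 8 ERK feedback genes, which PD0325901 is known to lower, summed to 6523 to 6548 in the J1 ESCs, 10353 to 10420 in the libraries labelled D-EPSC and 14884 to 15111 in the libraries labelled L-EPSC, so they were highest in libraries whose labelled medium held the inhibitor, and the J1 groups below are named by their labels. In the tet-off lines the same sum was 11672 to 14324 in ESCs and 2239 to 3739 in L-EPSCs without Dox.

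**Figure D1:**
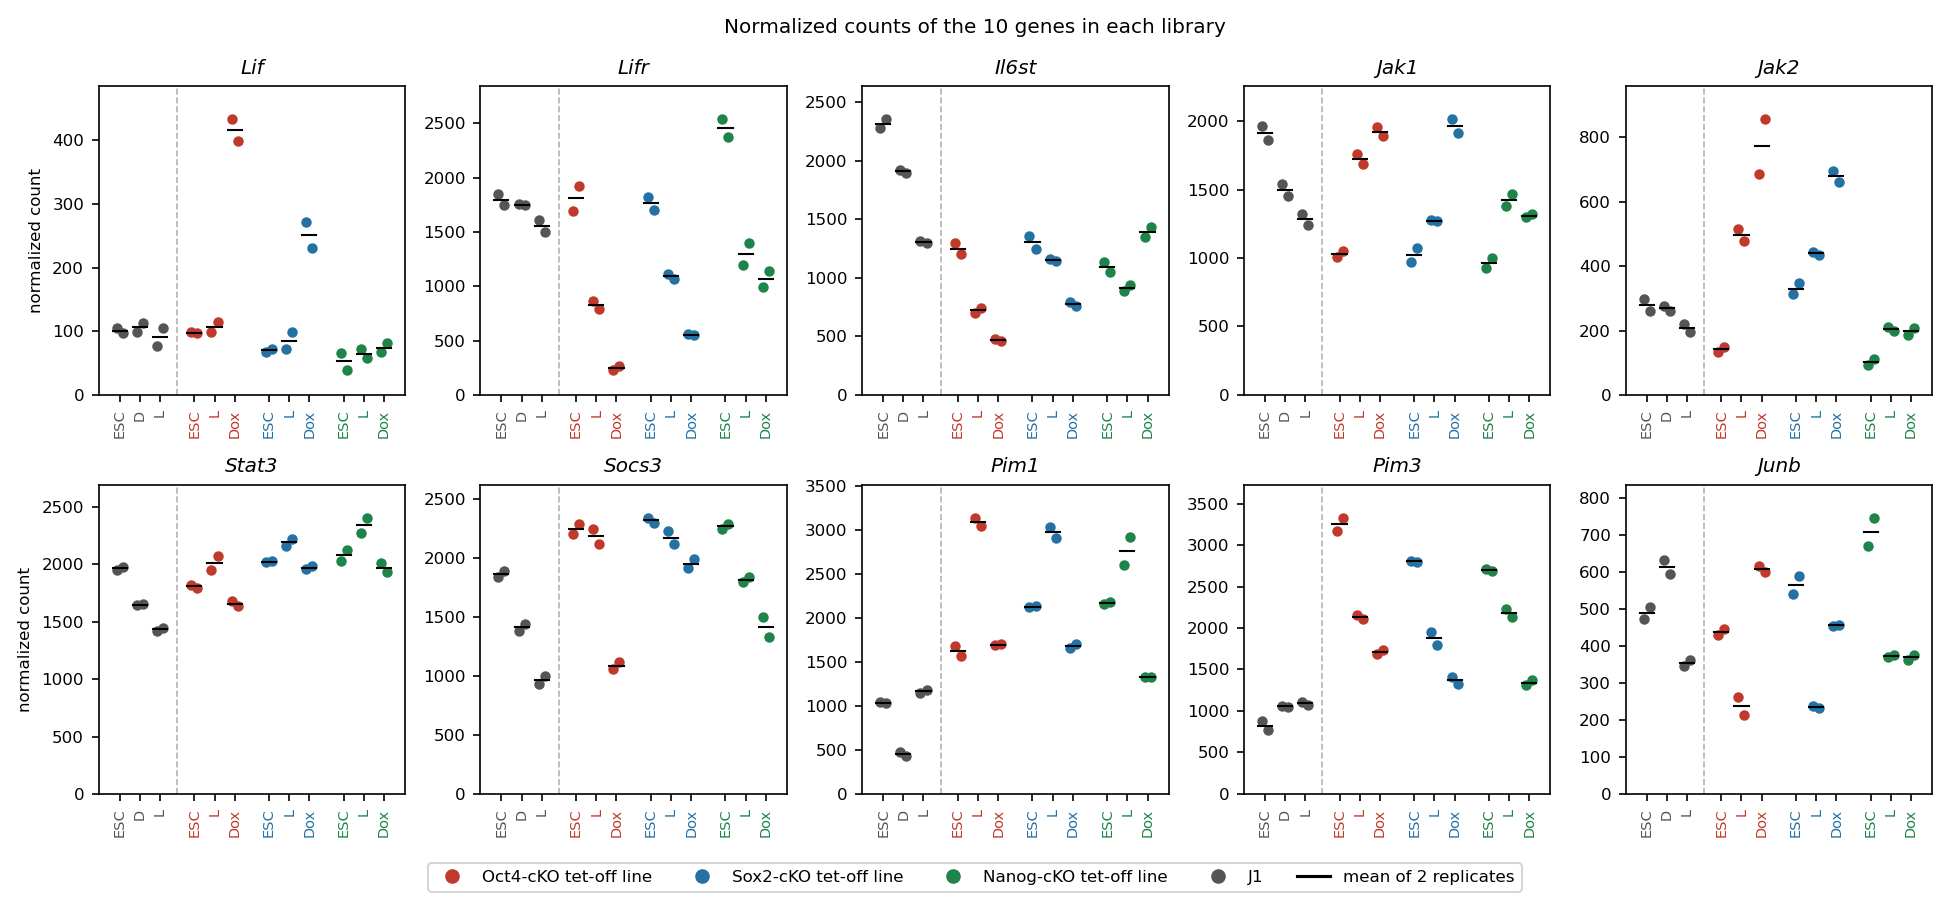
Normalized counts of the 10 genes (vertical axis, linear, from 0) in each of the 24 libraries (points), with the mean of 2 replicates as a bar. Groups run from J1 ESC, D-EPSC and L-EPSC, left of the dashed line, to ESC, L-EPSC (L) and L-EPSC with Dox of each tet-off line, and the 2 tables were normalized separately. Lif reached 433 and 398 in Oct4-cKO L-EPSCs with Dox, the group in which Lifr was lowest, at 233 and 262.

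Per kilobase of exon, Pim1, Pim3 and Socs3 stood above the other genes in the tet-off lines. In the 9 tet-off groups Pim1, Pim3 and Socs3 held the 3 highest levels per kb, between 376 per kb for Socs3 in Oct4-cKO L-EPSCs with Dox and 1569 per kb for Pim1 in the same cells without Dox. Lif was lowest in 7 of these groups, at 12.1 to 24.6 per kb. With Dox it was not the lowest in the Oct4- and Sox2-cKO lines, where Lif stood at 95.6 and 57.7 per kb and Lifr at 23.9 and 53.8 per kb. Jak1 was above Jak2 in all 12 groups, for instance at 264.5 against 55.7 per kb in J1 ESCs. Length per gene is the union of its exons. With the length of the longest transcript instead, 42 of the 120 ranks of a gene within a group changed, and Pim1, Pim3 and Socs3 still led in all 9 tet-off groups. In J1 they did not lead together in ESCs or D-EPSCs under either length, where Il6st stood above 1 of them.

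The J1 comparisons ask how the pathway differed between ESCs and the EPSCs of either protocol. In D-EPSCs Pim1 fell 2.27-fold, and no other of the 10 genes passed the threshold. In L-EPSCs Il6st fell 1.77-fold and Socs3 fell 1.94-fold, and none rose. Between the EPSCs, those of the L protocol had more Pim1 and less Junb mRNA. Thus 1 of 10 genes was called in D-EPSCs against ESCs, 2 of 10 in L-EPSCs against ESCs and 2 of 10 in L-EPSCs against D-EPSCs, beside 20.7%, 20.3% and 13.4% of all 21533 genes tested. The median log2 fold change of the 10 genes was −0.16, −0.44 and −0.23, against 0.01, 0 and 0 over all genes. D- and L-EPSCs were compared with the same J1 ESC libraries, so these comparisons are not independent of each other.

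Of the receptor genes, Il6st was at 2276 and 2356 normalized counts in J1 ESCs, 1925 and 1897 in D-EPSCs and 1313 and 1299 in L-EPSCs. The 3 groups did not overlap. The log2 fold change of L-EPSCs against ESCs was −0.83 ± 0.04 (SE), adjusted p = 1.5e-06, and that of D-EPSCs against ESCs was −0.28, short of the threshold. In bulk RNA, fewer cells of a type and less RNA per cell cannot be told apart. The summed fibroblast markers had the same order across these groups, but the single markers did not all share it. In L-EPSCs all 9 means were below those of ESCs, 7 of them past the threshold. In D-EPSCs the means of Col1a1, Col1a2, Col3a1 and Postn were below those of ESCs, and those of Dcn, Lum, Pdgfrb, Thy1 and Twist2 above. The summed macrophage markers were lowest in ESCs and highest in D-EPSCs. The parts of fibroblasts and of macrophages in the J1 results were not tested. Lifr, the LIF-binding subunit, stood at 1847 and 1749 in ESCs, 1754 and 1750.4 in D-EPSCs and 1610.0 and 1502 in L-EPSCs. The D-EPSC values lay between the ESC values, and L-EPSCs lay below both with a log2 fold change of −0.21 against ESCs.

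Jak1, a receptor-bound kinase, and Stat3 had the same order of groups as Il6st and smaller differences. Jak1 was at 1964 and 1859 in ESCs, 1538 and 1449.9 in D-EPSCs and 1324 and 1243 in L-EPSCs. These values did not overlap between groups, and the log2 fold change of L-EPSCs against ESCs, −0.57 ± 0.05 (SE), adjusted p = 6.9e-05, was short of the threshold of 0.6. Without ESC replicate 2 or L-EPSC replicate 1 it was −0.61 or −0.62 and past it. Stat3, the transcription factor of the pathway, was at 1951 and 1979 in ESCs, 1643 and 1654 in D-EPSCs and 1422 and 1442 in L-EPSCs. The groups again did not overlap, and its log2 fold change against ESCs was −0.25 for D-EPSCs (95% interval −0.33 to −0.17) and −0.46 in L-EPSCs (−0.54 to −0.38), so neither interval reaches a log2 change of −0.6. Jak2 was at 298 and 262 in ESCs, 278 and 259 in D-EPSCs and 219 and 195 in L-EPSCs, where ESCs and D-EPSCs overlapped. Lif mRNA did not separate the groups, at 105 and 96.8 in ESCs, 99.0 and 114 in D-EPSCs and 76.1 and 106 in L-EPSCs.

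Among the feedback and target genes the directions parted. Socs3, the feedback inhibitor, was at 1843 and 1893 normalized counts in ESCs, 1386 and 1441 in D-EPSCs and 931 and 999 in L-EPSCs. L-EPSCs lay lowest, with a log2 fold change of −0.95 ± 0.05 (SE), adjusted p = 3.1e-06 against ESCs, and that of D-EPSCs was −0.40. Pim1 was at 1041 and 1038 in ESCs, 481 and 434 in D-EPSCs and 1152 and 1186 in L-EPSCs. D-EPSCs stood apart, with a log2 fold change of −1.18 ± 0.06 (SE), adjusted p = 3.3e-06 against ESCs, while L-EPSCs against ESCs gave 0.17 ± 0.06 (SE), adjusted p = 0.058. Between L- and D-EPSCs the log2 fold change of Pim1 was 1.35 ± 0.06 (SE), adjusted p = 3.7e-06. Pim3, its paralogue, was at 874 and 773 in ESCs, 1064 and 1047 in D-EPSCs and 1105 and 1077 in L-EPSCs, so its values were higher in both EPSC groups but by log2 fold changes of only 0.36 and 0.41. Junb was at 472 and 504 in ESCs, 633 and 594 in D-EPSCs and 344 and 362 in L-EPSCs. The values of D-EPSCs lay above ESCs and those of L-EPSCs below, and the comparison of L- with D-EPSCs gave −0.79 ± 0.07 (SE), adjusted p = 0.00012.

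**Figure D2:**
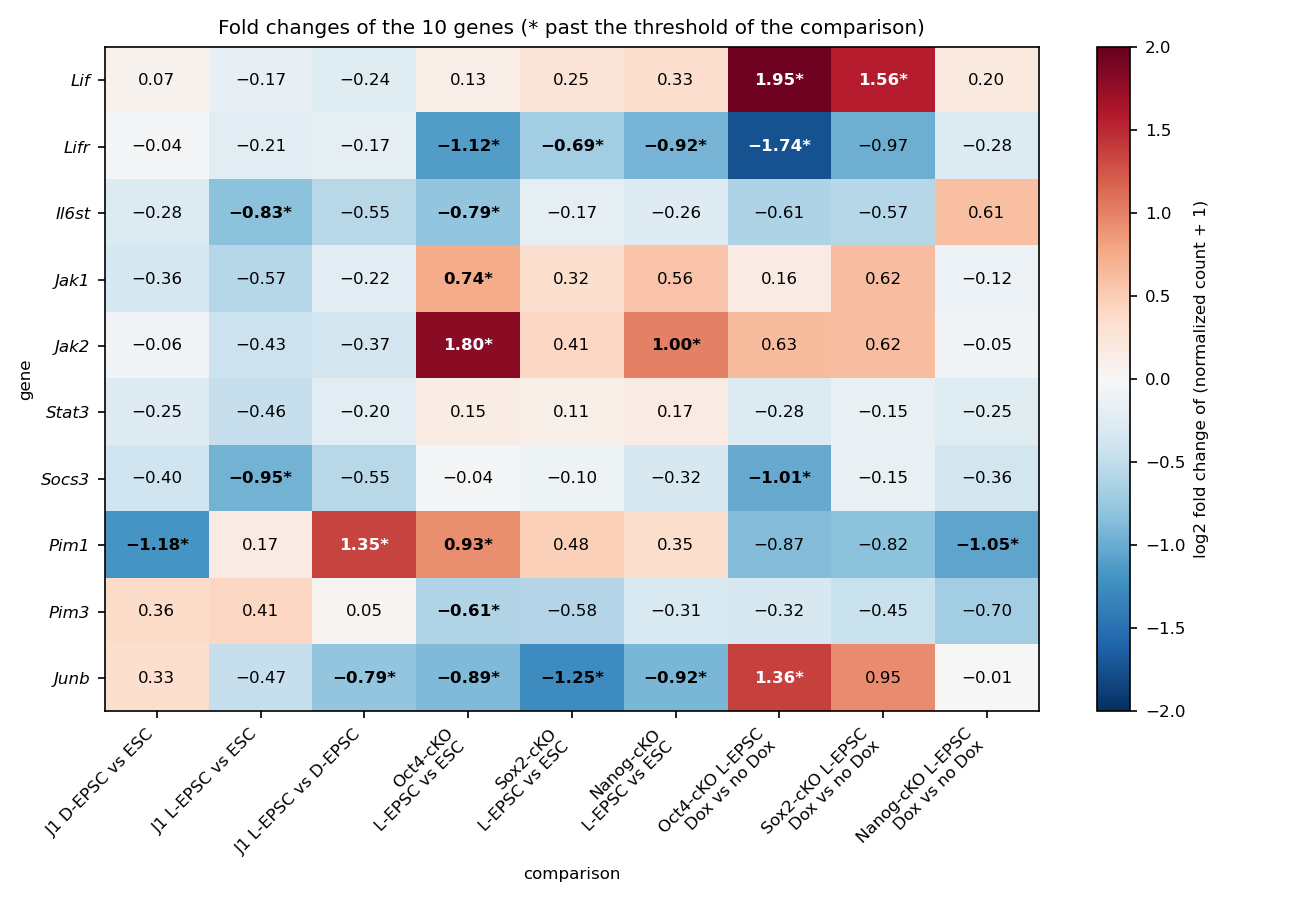
Log2 fold changes of the 10 genes (rows) in the 9 comparisons (columns), from limma on log2(normalized count + 1), with colour from −2 (blue) to 2 (red). An asterisk and bold type mark values past the threshold of the comparison. Stat3 is past it in no column, with values from −0.46 to 0.17, and Lifr is past it in all 3 conversions and in the Oct4-cKO line with Dox.

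The conversion of the tet-off ESCs to L-EPSCs, without Dox, asks the same question in 3 further lines. Lifr and Junb fell in all 3 lines. In the Oct4-cKO line Il6st and Pim3 fell as well and Jak1, Jak2 and Pim1 rose, and Jak2 rose in the Nanog-cKO line too. In all, 7 of 10 genes were called in the Oct4-cKO line, 2 of 10 in the Sox2-cKO line and 3 of 10 in the Nanog-cKO line, beside 28.4%, 19.6% and 26.9% of all 24007 genes tested. The median log2 fold change of the 10 was 0.05, 0.01 and −0.04, against 0 over all genes in each line. Fibroblast markers summed to at most 621 normalized counts in these libraries, and macrophage markers to at most 3178, with the macrophage sum lower in the L-EPSCs than in the ESCs of each line. The 8 ERK feedback genes fell in each line, 8 of 8, and their part in the results was not tested.

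Lifr was at 1695 and 1928 normalized counts in Oct4-cKO ESCs and 865 and 795 in the L-EPSCs made from them. It was at 1826 and 1702 before and 1115 and 1068 after conversion in the Sox2-cKO line, and at 2539.7 and 2374 before and 1199 and 1397 after conversion in the Nanog-cKO line. ESCs and L-EPSCs did not overlap in any line, and each L-EPSC library of the 3 lines was below each ESC library. The log2 fold changes were −1.12 ± 0.09 (SE), adjusted p = 1.2e-08, in the Oct4-cKO line, −0.69 ± 0.09 (SE), adjusted p = 6.5e-06, in the Sox2-cKO line, and −0.92 ± 0.09 (SE), adjusted p = 1.4e-07, in the Nanog-cKO line. In J1 the corresponding log2 fold change was −0.21, from a table normalized apart, and the difference was not tested.

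Il6st, which encodes gp130, was at 1296 and 1204 in Oct4-cKO ESCs and 699 and 744 in L-EPSCs, a log2 fold change of −0.79 ± 0.06 (SE), adjusted p = 1.1e-08. In the Sox2-cKO line it was at 1356 and 1250.2 before and 1163 and 1147 after conversion, and in the Nanog-cKO line at 1135 and 1048 before and 884 and 939 after conversion. ESCs and L-EPSCs did not overlap there either, but the log2 fold changes of −0.17 and −0.26 were short of the threshold.

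Jak2, the other kinase, rose more than any other of the 10 genes in the Oct4- and Nanog-cKO lines. It was at 135 and 148 normalized counts in Oct4-cKO ESCs and 515 and 477 in L-EPSCs, at 93.1 and 111 before and 212 and 198 after conversion in the Nanog-cKO line, and at 313 and 348 before and 444 and 436 after conversion in the Sox2-cKO line. L-EPSCs were above the ESCs of their line in all 3, and Sox2-cKO ESCs already lay above the Nanog-cKO L-EPSCs. The rise was 3.49-fold in the Oct4-cKO line (1.80 ± 0.11 (SE), adjusted p = 9e-10) and 2.00-fold in the Nanog-cKO line (1.00 ± 0.11 (SE), adjusted p = 1.3e-06), and the log2 fold change was 0.41 in the Sox2-cKO line. Jak1 was at 1011 and 1049 before and 1759.7 and 1687 after conversion in the Oct4-cKO line, where it rose (0.74 ± 0.05 (SE), adjusted p = 6.9e-09). It was at 970.2 and 1073 before and 1278 and 1270.0 after conversion in the Sox2-cKO line and at 925 and 1003 before and 1381 and 1468 after conversion in the Nanog-cKO line, with log2 fold changes of 0.32 and 0.56, the latter past the threshold without ESC replicate 2 (0.62) or L-EPSC replicate 1 (0.61) and, at 0.60, in edgeR and with TMM scaling. In each line the L-EPSC values were the higher ones.

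The level of Stat3 differed little. It was at 1823 and 1797 in Oct4-cKO ESCs and 1950.4 and 2069.7 in L-EPSCs, at 2018 and 2029 before and 2158 and 2224 after conversion in the Sox2-cKO line, and at 2032 and 2124 before and 2276 and 2402 after conversion in the Nanog-cKO line. The L-EPSC values were above those of the ESCs in each line, by log2 fold changes of 0.15, 0.11 and 0.17, and the upper ends of the 95% intervals were 0.24, 0.20 and 0.26. Socs3 was at 2205 and 2289.6 before and 2251 and 2120.0 after conversion in the Oct4-cKO line, at 2341 and 2302 before and 2229 and 2119 after conversion in the Sox2-cKO line and at 2250.0 and 2291 before and 1795 and 1840.3 after conversion in the Nanog-cKO line. Its log2 fold changes were −0.04 (95% interval −0.15 to 0.07), −0.10 (−0.21 to 0.01) and −0.32 (−0.43 to −0.21), and it was called in none of the lines. In J1 L-EPSCs, by comparison, Socs3 fell with a log2 fold change of −0.95. Lif, the ligand, was at 39.2 to 98.3 normalized counts in the ESCs of the 3 lines and at 58.1 to 115 in the L-EPSCs, with no call.

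The PIM kinase genes went opposite ways in the Oct4-cKO line. Pim1 was at 1681 and 1569 in Oct4-cKO ESCs and 3138 and 3051 in L-EPSCs, and rose (0.93 ± 0.05 (SE), adjusted p = 9.5e-11). It was at 2122 and 2138 before and 3041 and 2914 after conversion in the Sox2-cKO line and at 2155 and 2178 before and 2600.0 and 2928 after conversion in the Nanog-cKO line, each L-EPSC value above the ESC values, with log2 fold changes of 0.48 and 0.35. Pim3 was at 3172 and 3325 in Oct4-cKO ESCs and 2155 and 2110.1 in L-EPSCs, a log2 fold change of −0.61 ± 0.05 (SE), adjusted p = 9e-09 that edgeR and TMM scaling, both at −0.58, put short of the threshold. Without ESC replicate 2 or L-EPSC replicate 2 it was −0.57 or −0.59 and not called either. It was at 2806 and 2799 before and 1955 and 1795 after conversion in the Sox2-cKO line, with a log2 fold change of −0.58 that was −0.64 and called without L-EPSC replicate 1, and at 2715 and 2685 before and 2224 and 2135 after conversion in the Nanog-cKO line, with −0.31. Every Pim3 value of L-EPSCs was below every value of ESCs.

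Junb fell in each line. It was at 429.8 and 445 normalized counts in Oct4-cKO ESCs and 261 and 213 in L-EPSCs, at 539 and 588 before and 239 and 232 after conversion in the Sox2-cKO line, and at 669 and 745 before and 369.6 and 375 after conversion in the Nanog-cKO line. The lowest ESC value lay above the highest L-EPSC value over all 3 lines. The log2 fold changes were −0.89 ± 0.09 (SE), adjusted p = 2e-07, −1.25 ± 0.09 (SE), adjusted p = 6.4e-09, and −0.92 ± 0.09 (SE), adjusted p = 1.5e-07.

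The Dox comparisons ask what happened to the pathway when Dox was given to L-EPSCs to deplete Oct4, Sox2 or Nanog. In the Oct4-cKO line Lif rose 3.86-fold and Junb 2.57-fold, and Lifr fell 3.35-fold and Socs3 2.01-fold. In the Sox2-cKO line Lif rose 2.96-fold and no other of the 10 genes passed the threshold, Lifr missing it narrowly. In the Nanog-cKO line, where 3139 of 8983 normalized counts of Nanog mRNA remained, Pim1 fell 2.07-fold and was the sole call. Thus 4, 1 and 1 of 10 genes were called, beside 19.3%, 15.1% and 5.39% of all 24007 genes tested. The median log2 fold change of the 10 genes was −0.30, −0.15 and −0.18, against 0 over all genes in each line. The L-EPSCs without Dox are the same libraries as in the conversions above, so a high or low value there enters both comparisons.

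Other cell states moved with these values. The 5 pluripotency markers, Pou5f1, Sox2, Nanog, Zfp42 and Esrrb, summed to 26331 to 26359 normalized counts in Oct4-cKO L-EPSCs and 1924 to 2006 with Dox, to 29290 to 29739 and then 5182 to 5406 in the Sox2-cKO line, and to 34557 to 34846 and then 20624 to 21382 in the Nanog-cKO line. In the 3 lines 5, 5 and 1 of 5 were past the threshold, beside 19.3%, 15.1% and 5.39% of all genes, and all 5 means were lower in each line. The list holds the targeted gene of each line, whose fall with Dox was set by the design. The 1 call in the Nanog-cKO line was Nanog itself. The 6 trophoblast markers, with none at 0, summed to 1000.1 to 1029 and then 5066 to 5112 in the Oct4-cKO line, to 459 to 479.9 and then 2027 to 2069.7 in the Sox2-cKO line, and to 92.8 to 115.0 and then 136 to 156 in the Nanog-cKO line. Of the 6, 4, 5 and 0 were past the threshold, beside the same shares of all genes, and those past it were all higher. Hand1 went the other way in the Oct4- and Sox2-cKO lines, from means of 360 to 261 and 108 to 62.8, short of the threshold. In the Nanog-cKO line the mean of Cdx2 was lower with Dox, at 6.83 and then 5.08. ERK feedback genes summed to 449.6 to 459 with Dox in the Oct4-cKO line, with Spry4 at 0, to 881 to 883 in the Sox2-cKO line and to 1853 to 2029 in the Nanog-cKO line. The part of a change of cell state in the results below was not tested.

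Lif was at 99.4 and 115 normalized counts in Oct4-cKO L-EPSCs and 433 and 398 with Dox, a log2 fold change of 1.95 ± 0.22 (SE), adjusted p = 1.3e-06. In the Sox2-cKO line it was at 71.3 and 98.8 without and 271 and 231 with Dox, a log2 fold change of 1.56 ± 0.22 (SE), adjusted p = 1.9e-05. In the Nanog-cKO line it was at 71.4 and 58.1 without and 66.8 and 82.1 with Dox, and the log2 fold change was 0.20 with a 95% interval of −0.27 to 0.66. The Dox libraries of the Oct4- and Sox2-cKO lines thus lay above every other library of the 24, and those of the Nanog-cKO line overlapped with its untreated ones.

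Lifr went the other way. It was at 865 and 795 in Oct4-cKO L-EPSCs and 233 and 262 with Dox (−1.74 ± 0.09 (SE), adjusted p = 4.6e-11). In the Sox2-cKO line it was at 1115 and 1068 without and 560.1 and 552 with Dox, with no overlap, and its log2 fold change of −0.97 ± 0.09 (SE), adjusted p = 9.3e-08, was short of 1. Without untreated replicate 2 it was −1.002, and with median centring −1.04, both called. In the Nanog-cKO line it was at 1199 and 1397 without and 998 and 1137 with Dox, a log2 fold change of −0.28. Il6st was at 699 and 744 in Oct4-cKO L-EPSCs and 480.2 and 464 with Dox, at 1163 and 1147 without and 794 and 762 with Dox in the Sox2-cKO line, and at 884 and 939 without and 1345 and 1432 with Dox in the Nanog-cKO line. Values with Dox were the lower ones in the Oct4- and Sox2-cKO lines and the higher ones in the Nanog-cKO line. Its log2 fold changes, −0.61, −0.57 and 0.61, were all short of 1.

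Neither kinase passed the threshold. Jak1 was at 1278 and 1270.0 in Sox2-cKO L-EPSCs and 2015 and 1914 with Dox, a log2 fold change of 0.62, against 0.16 in the Oct4-cKO line and −0.12 in the Nanog-cKO line. Jak2 was at 515 and 477 in Oct4-cKO L-EPSCs and 687 and 857 with Dox, where the replicates with Dox lay far apart but above the untreated ones. It was at 444 and 436 without and 696 and 661 with Dox in the Sox2-cKO line and at 212 and 198 without and 186 and 209 with Dox in the Nanog-cKO line, and the log2 fold changes were 0.63, 0.62 and −0.05. Stat3 was at 1950.4 and 2069.7 in Oct4-cKO L-EPSCs and 1681 and 1635 with Dox, at 2158 and 2224 without and 1958 and 1985 with Dox in the Sox2-cKO line, and at 2276 and 2402 without and 2008 and 1930.2 with Dox in the Nanog-cKO line. All 6 values with Dox lay below the untreated values of their line, by log2 fold changes of −0.28 (95% interval −0.36 to −0.19), −0.15 (−0.24 to −0.07) and −0.25 (−0.33 to −0.16).

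**Figure D3:**
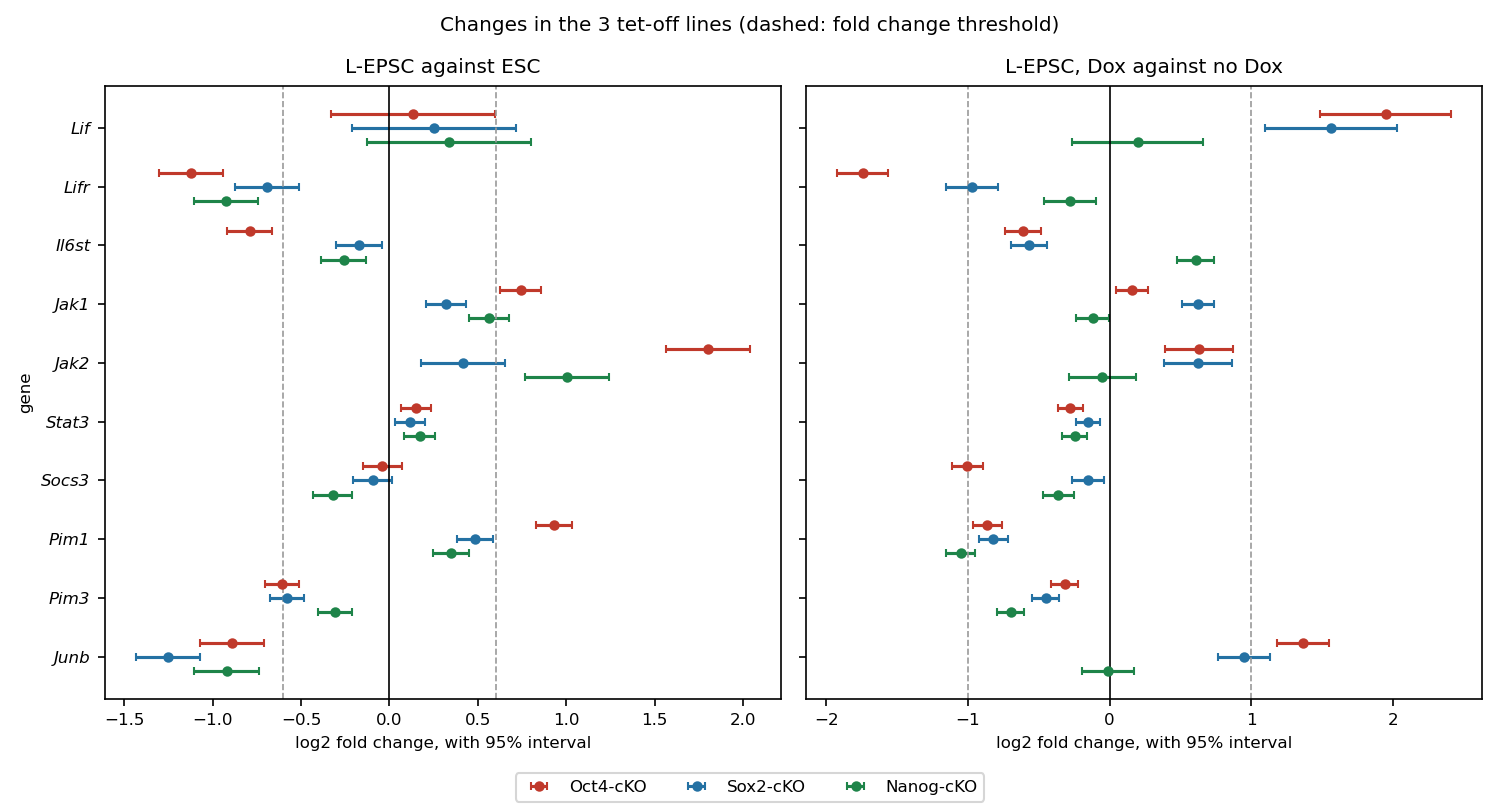
Log2 fold changes of the 10 genes (rows) in the 3 tet-off lines, for L-EPSC against ESC (left) and for Dox against no Dox in L-EPSCs (right), on linear axes. Bars are 95% intervals of the limma fit over 2 replicates a group, and dashed lines mark the thresholds of 0.6 and 1. For Dox, the Nanog-cKO line lies apart from the other lines at Il6st, with 0.61 against −0.61 and −0.57.

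Socs3 was at 2251 and 2120.0 normalized counts in Oct4-cKO L-EPSCs and 1059 and 1117 with Dox, a log2 fold change of −1.01 ± 0.05 (SE), adjusted p = 8.4e-11. Without Dox replicate 1, or without untreated replicate 1, it came to −0.97 or −0.96 and was not called. In the Sox2-cKO line Socs3 was at 2229 and 2119 without and 1919 and 1993 with Dox, and in the Nanog-cKO line at 1795 and 1840.3 without and 1502 and 1332 with Dox. The values with Dox were the lower ones in both, by log2 fold changes of −0.15 and −0.36.

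Pim1 was at 2600.0 and 2928 in Nanog-cKO L-EPSCs and 1329.9 and 1334 with Dox, a log2 fold change of −1.05 ± 0.05 (SE), adjusted p = 1.8e-10. Without untreated replicate 2, the higher of its pair, it was −0.96 and no longer called. Pim1 was at 3138 and 3051 without and 1693 and 1703 with Dox in the Oct4-cKO line and at 3041 and 2914 without and 1658 and 1709 with Dox in the Sox2-cKO line, with log2 fold changes of −0.87 and −0.82. In all 3 lines the values with Dox were the lower ones, without overlap. Pim3 was at 2155 and 2110.1 without and 1688 and 1736 with Dox in the Oct4-cKO line, 1955 and 1795 without and 1411 and 1327 with Dox in the Sox2-cKO line and 2224 and 2135 without and 1311 and 1375 with Dox in the Nanog-cKO line, again lower in each, with log2 fold changes of −0.32, −0.45 and −0.70.

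Junb, which had fallen on conversion, was at 261 and 213 in Oct4-cKO L-EPSCs and 617 and 599 with Dox, and rose (1.36 ± 0.09 (SE), adjusted p = 9.8e-10). It was at 239 and 232 without and 454 and 457 with Dox in the Sox2-cKO line, a log2 fold change of 0.95 ± 0.09 (SE), adjusted p = 1.2e-07, short of 1. In the Nanog-cKO line it was at 369.6 and 375 without and 362 and 377 with Dox, where the values overlapped.

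Whether the lines differed in these effects was tested with interaction terms of the same fit. The rise of Jak2 on conversion was larger in the Oct4-cKO line than in the Sox2-cKO line, by 1.39 ± 0.16 (SE), adjusted p = 7.9e-06, and than in the Nanog-cKO line, by 0.80 ± 0.16 (SE), adjusted p = 0.0011. Il6st differed between the Oct4- and the Sox2-cKO line, by −0.62 ± 0.08 (SE), adjusted p = 5.3e-05, which was −0.56, −0.57 or −0.57 and not called without Sox2-cKO ESC replicate 2, Oct4-cKO ESC replicate 1 or untreated Oct4-cKO L-EPSC replicate 1. These were 2, 1 and 0 of 10 genes called for Oct4 minus Sox2, Oct4 minus Nanog and Sox2 minus Nanog, beside 10.0%, 14.7% and 14.8% of all genes. Lifr, Jak1, Pim1 and Junb for Oct4 minus Sox2 had an adjusted p under 0.05 in limma with a difference short of 0.6. The same held for Il6st, Socs3, Pim1 and Pim3 for Oct4 minus Nanog. For Sox2 minus Nanog 5 of 10 had an unadjusted p under 0.05. Among them, Jak1, Jak2, Socs3 and Pim3 also had an adjusted p under 0.05 in limma, with differences short of 0.6. DESeq2 called 0 and edgeR called 1, Jak2 at −0.61. For Dox, 0 of 10 genes passed the threshold of 1 between the Oct4- and Sox2-cKO lines in limma, edgeR and DESeq2, beside 6.81% of all genes. Of these, 5 had an unadjusted p under 0.05 in limma, and 4 had an adjusted p under 0.05 with a difference short of 1, Socs3 (−0.85 ± 0.07 (SE), adjusted p = 2.1e-07), Lifr (−0.77 ± 0.12 (SE), adjusted p = 0.00013), Jak1 (−0.47 ± 0.08 (SE), adjusted p = 0.00021) and Junb (0.42 ± 0.12 (SE), adjusted p = 0.018). Between the Oct4- and Nanog-cKO lines 4 of 10 passed the threshold of 1, Lif, Lifr, Il6st and Junb, beside 14.8%. Between the Sox2- and Nanog-cKO lines 2 of 10 passed it, Lif and Il6st, beside 11.3%. In both, Jak1, Jak2, Socs3, Pim1 and Pim3 had an adjusted p under 0.05 in limma with a difference short of 1. For Sox2 minus Nanog this held for Lifr and Junb too. The Dox effect on Il6st differed by −1.22 ± 0.08 (SE), adjusted p = 8.4e-09, between Oct4 and Nanog, and by −1.18 ± 0.08 (SE), adjusted p = 1.9e-08, between Sox2 and Nanog. Each of these compares 1 line with 1 line.

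Across the 9 tet-off groups the levels of the genes spanned very different ranges. The highest group mean was 9.94 times the lowest for Lifr, 7.91 times for Lif and 7.57 times for Jak2, but 1.41 times for Stat3. The other 6 genes lay between 2.04 times for Jak1 and 3.00 times for Junb. Lifr was highest in Nanog-cKO ESCs, at 2457 ± 117 normalized counts (mean ± SD, n = 2), followed by Oct4- and Sox2-cKO ESCs, whose replicates overlapped. Below them came Nanog-cKO L-EPSCs, then Sox2-cKO L-EPSCs and Nanog-cKO L-EPSCs with Dox, which overlapped, then Oct4-cKO L-EPSCs and the Sox2-cKO line with Dox, and last the Oct4-cKO line with Dox at 247 ± 20.7. Socs3 ran from 2322 ± 27.7 in Sox2-cKO ESCs to 1088 ± 40.5 in Oct4-cKO L-EPSCs with Dox. Nanog-cKO ESCs, Oct4-cKO ESCs, Oct4-cKO L-EPSCs and Sox2-cKO L-EPSCs followed the Sox2-cKO ESCs, and each of these 4 overlapped with the next. The genes whose group means were most alike to those of Lifr, by Pearson's r of log2(normalized count + 1) over the 9 groups among 9926 genes with a mean of at least 100, were Cacng7 (r = 0.994), Gpa33 (0.987) and Il17rd (0.985). For Socs3 they were Lnpep (0.969), Kdm5c (0.964) and Dmxl1 (0.959). The 9 points share 3 lines and are given as a description.

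Around these 10 genes, 51 others of the pathway were counted by role. On conversion 19 of 51 were called in the Oct4-cKO line (7 higher, 12 lower), 13 in the Sox2-cKO line (2 and 11) and 17 in the Nanog-cKO line (4 and 13). With Dox 18 were called in the Oct4-cKO line (7 higher, 11 lower), 18 in the Sox2-cKO line (8 and 10) and 2 in the Nanog-cKO line, both higher. In J1 22 were called in D-EPSCs against ESCs (15 higher, 7 lower), 16 in L-EPSCs against ESCs (7 and 9) and 12 in L-EPSCs against D-EPSCs (4 and 8). The shares of all genes called in these comparisons are those given above.

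The other ligands of the gp130 family, Il6, Il11, Osm, Ctf1, Clcf1, Cntf and Il27, were at 34.6 normalized counts or less in every group mean but 1. That one was Osm, oncostatin M, at 160.0 and 148 in J1 ESCs against 23.5 and 16.6 in D-EPSCs and 19.5 and 20.7 in L-EPSCs. It fell in both, and the log2 fold changes against ESCs were −2.90 ± 0.26 (SE), adjusted p = 8e-05, and −2.88 ± 0.26 (SE), adjusted p = 8.1e-05. Il27 in J1 D-EPSCs and, with Dox, Il11 in the Oct4- and Sox2-cKO lines and Il27 in the Oct4-cKO line were called too, all at 8 reads or fewer in each library compared, and no fold is given for them. Among 5 receptor subunits, Osmr, the receptor of oncostatin M, was at 512 and 479 in J1 ESCs, 868 and 933 in D-EPSCs and 269 and 232 in L-EPSCs, but at group means of 1.04 to 15.9 in the tet-off table. Cntfr, the receptor of ciliary neurotrophic factor, was at 10.8 and 18.4 in J1 ESCs, 325 and 298 in D-EPSCs and 479 and 485 in L-EPSCs. It rose in both, with log2 fold changes of 4.36 and 5.00. With Dox Cntfr fell in the Oct4- and Sox2-cKO lines, with log2 fold changes of −1.90 ± 0.26 (SE), adjusted p = 1.5e-05, and −1.19 ± 0.26 (SE), adjusted p = 0.0016. Il6ra, the interleukin-6 receptor, fell in the L-EPSCs of all 3 tet-off lines and in both J1 EPSCs, from 135 to 22.4 in the Nanog-cKO line and from 278 to 77.1 and 63.4 in J1. Il27ra, a subunit of the interleukin-27 receptor, fell with Dox in the Oct4-cKO line, from 11 and 7 reads to 0 in both libraries, and in the Sox2-cKO line, from 9 and 20 reads to 3 in both.

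Of the other JAK and STAT genes, Jak3 and Stat5b fell in the Oct4-cKO line with Dox, with log2 fold changes of −1.27 and −1.30. Stat4 fell in the Sox2-cKO line with Dox, with −1.29. On conversion Stat4 values were lower too, from 166 and 153 to 40.8 and 55.7 in the Oct4-cKO line and from 193 and 198 to 86.4 and 80.8 in the Sox2-cKO line. Its Nanog-cKO values went from 234 and 248 to 183 and 164. In J1 Stat4 was higher in D-EPSCs, at 144 and 159 against 59.3 and 60.9 in ESCs. Stat6 went from 691 and 694 to 336 and 382 on conversion in the Nanog-cKO line.

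Of 15 inhibitors and phosphatases, Socs2 was the only one called with Dox in any line, beside 19.3%, 15.1% and 5.39% of all genes. It was at 355 and 395 in Oct4-cKO L-EPSCs and 26.5 and 47.7 with Dox (−3.36 ± 0.17 (SE), adjusted p = 8.4e-11), and at 547 and 516 without and 172 and 164 with Dox in the Sox2-cKO line (−1.66 ± 0.17 (SE), adjusted p = 7e-07). Its window above holds 2 matches of TTCCNGGAA. Cish, the cytokine-inducible SH2 protein whose window is also printed above, fell on conversion in all 3 tet-off lines, from 114 and 122 to 52.4 and 48.5 in the Oct4-cKO line, from 139 and 159.5 to 56.2 and 52.9 in the Sox2-cKO line and from 72.1 and 83.0 to 42.6 and 43.8 in the Nanog-cKO line. The log2 fold changes were −1.21, −1.44 and −0.83. Pias2 and Socs5 fell on conversion in all 3 lines as well, Pias2 for instance with a log2 fold change of −1.12 in the Nanog-cKO line. Socs1 rose in the Oct4-cKO line and was called in neither of the other lines, with a log2 fold change of 1.43 ± 0.22 (SE), adjusted p = 5.3e-05.

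Of 10 further genes known as LIF or STAT3 targets in ESCs, 7 were called with Dox in the Oct4-cKO line (2 higher, 5 lower), 7 in the Sox2-cKO line (2 higher, 5 lower) and 2 in the Nanog-cKO line, beside 19.3%, 15.1% and 5.39% of all genes. The pluripotency factors Klf4, Tfcp2l1 and Gbx2 and the kinase gene Pim2 fell in both the Oct4- and the Sox2-cKO line. Tfcp2l1 was at 7201 and 6903 in Oct4-cKO L-EPSCs and 1988 and 2010.2 with Dox, and at 7255 and 7336 without and 2659.6 and 2518 with Dox in the Sox2-cKO line, log2 fold changes of −1.82 and −1.50. Klf4 was at 2479 and 2449.6 without and 758 and 855 with Dox in the Oct4-cKO line and at 2053 and 1892 without and 525 and 572 with Dox in the Sox2-cKO line. In the Nanog-cKO line Klf4 was lower with Dox too, at means of 2455 without and 1231 with Dox and without overlap, but was not called. Myc and Cebpb rose in all 3 lines. Myc was at 29.3 and 56.6 without and 1069.8 and 1098 with Dox in the Oct4-cKO line, at 34.6 and 35.9 without and 390.2 and 424 with Dox in the Sox2-cKO line, and at 21.3 and 10.2 without and 38.6 and 38.2 with Dox in the Nanog-cKO line. The values with Dox were above the untreated ones each time. On conversion Myc and Gbx2 had fallen in all 3 lines, Myc with log2 fold changes of −3.90, −3.11 and −5.68. In J1 both rose instead, Myc with 0.71 in D-EPSCs and 1.93 in L-EPSCs and Gbx2 with 1.79 and 2.34. Tfcp2l1 fell in both J1 EPSCs, from 14748 and 14588 in ESCs to 1353 and 1328 in D-EPSCs and 3484 and 3325 in L-EPSCs.

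**Figure D4:**
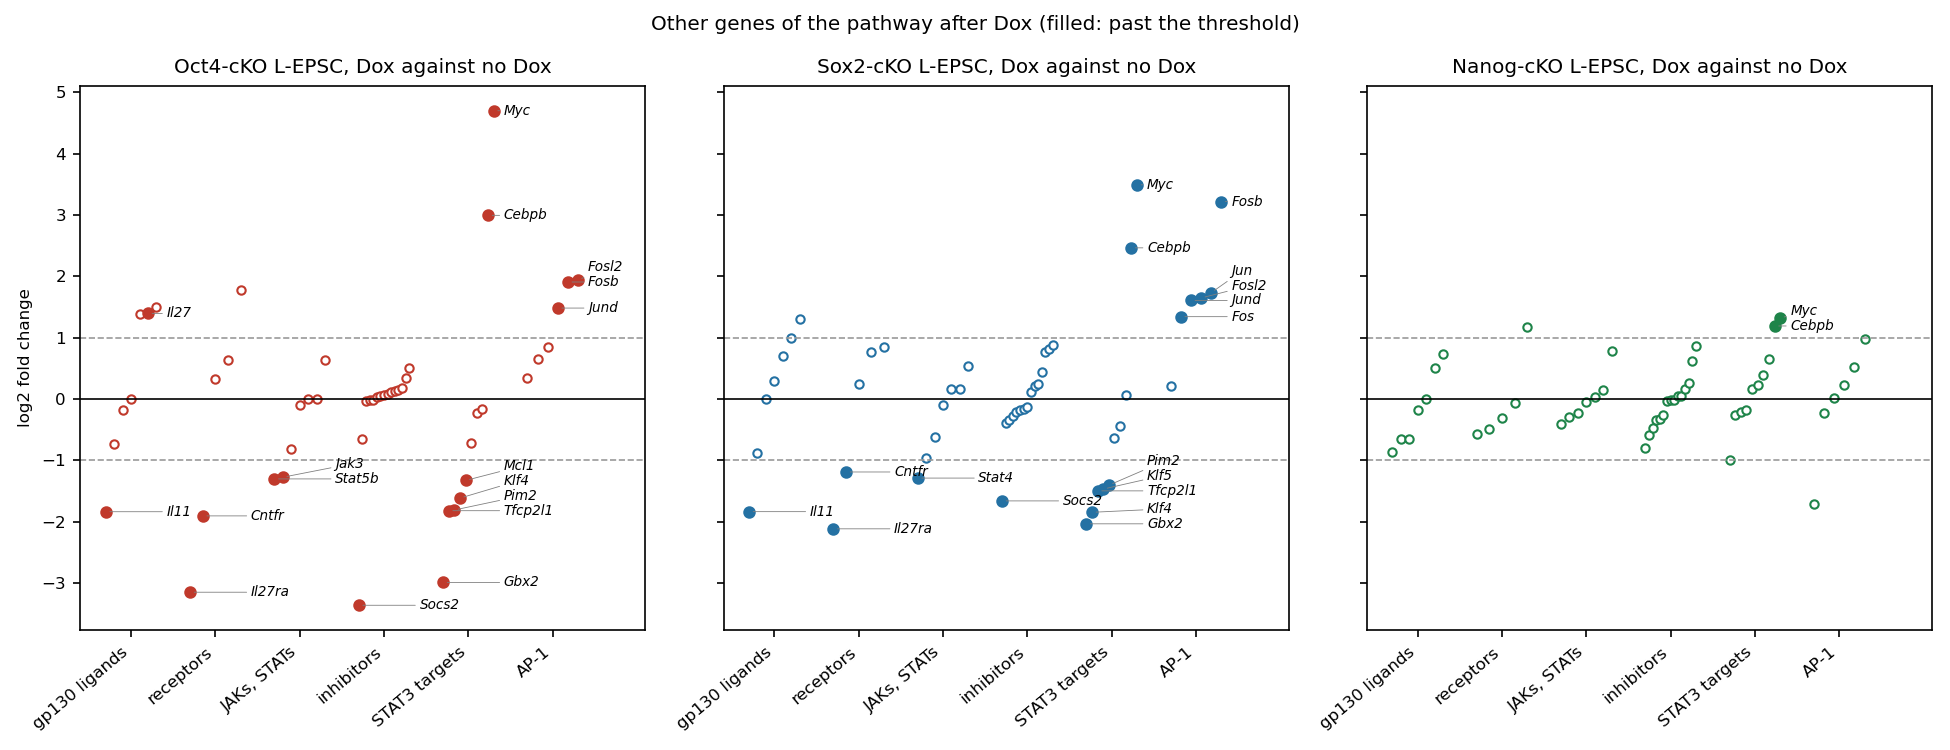
Log2 fold changes with Dox (vertical axis, linear) of 50 of the 51 other pathway genes, grouped by role along the horizontal axis, in L-EPSCs of the 3 tet-off lines. Each point is 1 gene, filled and named where past the threshold of 1 (dashed), and points of Il11, Il27 and Il27ra rest on 0 or few reads and depend on the pseudocount. Myc is the highest point in each panel, at 4.70, 3.49 and 1.32, and Socs2 is the lowest in the first, at −3.36.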

How the data were processed

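Poly(A) RNA of 12 groups with 2 libraries each was sequenced as paired ends from Universal Plus mRNA-Seq libraries. According to the study's methods and the submitters' processing notes, the authors trimmed reads with Trim Galore (0.6.4), aligned them to NCBIM37 with STAR (2.7.9a), counted them per gene with HTSeq (0.11.2) and normalized them with DESeq2 (listed there as 4.1.1). The deposited values are a signal, gene counts divided by a DESeq2 size factor, in one table for J1 and one for the tet-off lines, which were normalized separately and never tested against each other. In each of the 24 libraries all values were whole multiples of 1 read within a tolerance of 0.05, which gave back the read counts. In 2 Sox2-cKO libraries, replicate 1 of the ESCs and replicate 2 of the L-EPSCs without Dox, 1 read is worth about 1.

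Genes with at least 2 reads in a table were tested, 21533 of 23095 (J1) and 24007 of 25476 (tet-off). The main test was limma (3.58.1, R 4.3.3) with a mean-variance trend. It took log2 of the normalized count plus 1 and fitted every group of a table together, with differences between lines as interaction terms, and Benjamini-Hochberg adjustment over all genes tested. Genes were called below an adjusted p of 0.05 where the log2 fold change also passed 0.6, or 1 for Dox. On simulated counts limma called 199 of 200 changed genes and 0 unchanged ones for J1 L-EPSC against ESC (20940 genes) and 200 of 200 and 4 unchanged ones for Dox in the Oct4-cKO line (23363 genes). The changed genes were drawn from well-covered genes, all with a change of the same size well beyond either threshold, and the spread was fixed. The simulation therefore does not measure how often changes near a threshold or in genes with few reads are called. The median depth was 13076077 reads in J1 and 12109406 in the tet-off libraries, and the common biological coefficient of variation from edgeR was 0.0281 and 0.0301.

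Levels per kb used the exon union in the GENCODE vM1 annotation of NCBIM37, which also gave positions and promoter windows. The text names all 10 genes, and of the other pathway genes those past a threshold, in part as counts, and the 3 genes most alike to Lifr and to Socs3. The members and gene lists were chosen with earlier results of these data known. Alternatives were edgeR (4.0.16) and DESeq2 (1.42.0) on whole reads, scaling by TMM or centring on the median, a pseudocount of 0.1, a mean of at least 10, only the groups compared, a replicate block, the other fold change threshold, leaving out each replicate, the length of the longest transcript and a spacing of 4 bases in the motif. Python (3.11.15), NumPy (2.4.6), pandas (2.3.3) and matplotlib (3.10.9) did the rest. No column of the tables was left out. The values of 1 other pathway gene, which is counted with its list, are not reported here.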

Additional observations from a re-analysis of the deposited data

Results flagged for a closer look

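The effects of conversion and of Dox on some of the 10 genes differed between the tet-off lines, by interaction terms in limma with Benjamini-Hochberg adjustment, each from 2 replicates a group and 1 line against 1 line. On conversion, the log2 fold change of Jak2 in the Oct4-cKO line exceeded that in the Sox2-cKO line by 1.39 ± 0.16 (SE), adjusted p = 7.9e-06. It exceeded that in the Nanog-cKO line by 0.80 ± 0.16 (SE), adjusted p = 0.0011. That of Il6st was lower in the Oct4- than in the Sox2-cKO line, with a difference of −0.62 ± 0.08 (SE), adjusted p = 5.3e-05.

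With Dox, the difference between the Oct4- and Nanog-cKO lines passed the threshold of 1 at 4 genes. The log2 fold change of Lif was higher by 1.75 ± 0.31 (SE), adjusted p = 0.00027, and that of Junb by 1.38 ± 0.12 (SE), adjusted p = 1.4e-07. That of Lifr differed by −1.46 ± 0.12 (SE), adjusted p = 6.6e-08, and that of Il6st by −1.22 ± 0.08 (SE), adjusted p = 8.4e-09. The difference between the Sox2- and Nanog-cKO lines passed it at Lif, with 1.37 ± 0.31 (SE), adjusted p = 0.0026, and at Il6st, with −1.18 ± 0.08 (SE), adjusted p = 1.9e-08. Further genes, named above, had an adjusted p under 0.05 in these comparisons with differences short of 1. All 4 libraries of the Oct4- and Sox2-cKO lines with Dox lay below the untreated libraries of their line at Il6st, and both of the Nanog-cKO line above. The share of Nanog mRNA left with Dox was larger than that of Pou5f1 or Sox2 in their lines, at 3139 of 8983 against 173 of 6368 and 50.1 of 4833 mean normalized counts, and its part in these differences was not tested. By western blot the study reported loss of the Nanog protein with Dox, and mRNA levels do not measure protein.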

How the results depend on the processing

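Over all alternatives, 1730 of 1799 log2 fold changes of the 10 genes kept their direction and their side of the threshold, 23 fell short of it, 38 newly passed it and 8 changed sign. Differences between lines entered these counts only where their adjusted p in the main fit was under 0.05. The other threshold, the replicate block and only the groups compared leave the log2 fold change itself the same by construction. The 8 changed sign only when 1 library was left out, and all were small and not called. Without 1 library, in J1 D-EPSCs against ESCs Lif ranged from −0.026 to 0.169, Lifr from −0.076 to 0.0024 and Jak2 from −0.152 to 0.035, and in L-EPSCs against ESCs Lif ranged from −0.403 to 0.067. On conversion Socs3 ranged from −0.084 to 0.0027 in the Oct4-cKO line and Lif from −0.032 to 0.701 in the Nanog-cKO line, where it passed the threshold without ESC replicate 1. With Dox in the Nanog-cKO line Jak2 ranged from −0.136 to 0.030 and Junb from −0.041 to 0.016. Socs3 between J1 L- and D-EPSCs was −0.60 and called without L-EPSC replicate 2.

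The other fold change threshold (1 for J1 and conversions, 0.6 for Dox) changed the number of the 10 genes called by its construction. It gave 0 in J1 L-EPSCs against ESCs, 1 in L- against D-EPSCs, 2, 1 and 1 on conversion in the Oct4-, Sox2- and Nanog-cKO lines and 7, 6 and 3 with Dox. For differences between lines it gave 1 (Oct4 minus Sox2) and 0 (Oct4 minus Nanog) on conversion and 2 (Oct4 minus Sox2) and 6 (Sox2 minus Nanog) with Dox. Median centring gave 2 with Dox in the Sox2-cKO line, adding Lifr at −1.04. edgeR and TMM scaling gave 1 for the conversion difference between Sox2 and Nanog, Jak2 at −0.61 and −0.60. The causes of these last changes were not tested.

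Without 1 library, the number called ranged from 1 to 2 with Dox in the Sox2-cKO line (2 without untreated replicate 2), from 0 to 1 in the Nanog-cKO line (0 without untreated replicate 2, Pim1 at −0.96), from 1 to 2 for the conversion difference between Oct4 and Sox2 (Il6st from −0.68 to −0.56), from 1 to 2 for Oct4 minus Nanog (Pim1 from 0.49 to 0.67) and from 0 to 1 for Sox2 minus Nanog (Jak2 from −0.71 to −0.46). Pim1 passed in the former without Oct4-cKO ESC replicate 1, untreated Oct4-cKO L-EPSC replicate 2 or untreated Nanog-cKO L-EPSC replicate 2. Jak2 passed in the latter without Sox2-cKO ESC replicate 1, untreated Sox2-cKO L-EPSC replicate 1, Nanog-cKO ESC replicate 2 or untreated Nanog-cKO L-EPSC replicate 2. Here a group left with 1 library was assumed to vary like the others.

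Replicate numbers did not pair the libraries. The deviations of same-numbered libraries from their group means correlated at −0.00757 to 0.0264 over 3 pairs of J1 groups and −0.0625 to 0.0626 over 36 pairs of tet-off groups. With the replicate number as a block, 127 of 127 log2 fold changes and 15 of 15 counts of the genes kept their call, with 1 of 10 called for Dox in the Nanog-cKO line, as without it.

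Counts over all genes moved by more than 1.5 times with the other threshold in J1 L-EPSCs against ESCs (4380 to 2899) and L- against D-EPSCs (2881 to 1836), on conversion (6822 to 4466, 4713 to 2990 and 6457 to 4196 in the Oct4-, Sox2- and Nanog-cKO lines) and with Dox in the Sox2-cKO (3628 to 5568) and Nanog-cKO lines (1293 to 2386). For differences between lines, Oct4 minus Sox2, Oct4 minus Nanog and Sox2 minus Nanog, they went from 2403 to 1286, 3536 to 2059 and 3551 to 2199 on conversion and from 1635 to 3097, 3545 to 5414 and 2714 to 4383 with Dox. With only the groups compared, Dox in the Nanog-cKO line gave 479 in place of 1293, and without J1 D-EPSC replicate 2, L- against D-EPSCs gave 1913 in place of 2881. The same palindrome with 4 bases between its arms in place of 3, found in 5.37% of all windows, was in 0 windows of the 10 genes, against 1 gene with TTCNNNGAA. Depth limits Il11, Il27 and Il27ra, which were at 0 to a few reads in groups compared, and no fold is given for them.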

Other observations

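Junb belongs to the AP-1 family, and 6 other members of it (Fos, Fosb, Fosl1, Fosl2, Jun and Jund) were counted among the 51 other pathway genes. Junb and Fos moved in opposite directions on conversion in all 3 tet-off lines. Fos was at 64.8 and 48.3 normalized counts in Oct4-cKO ESCs and 819 and 859.7 in L-EPSCs, at 95.9 and 80.6 before and 527 and 535 after conversion in the Sox2-cKO line, and at 61.7 and 85.2 before and 965 and 1013 after in the Nanog-cKO line. Its log2 fold changes were 3.88, 2.58 and 3.75, all past the limma threshold. Jun rose in the Oct4- and Nanog-cKO lines, with log2 fold changes of 2.09 and 1.68, and Fosl2 fell in the Sox2- and Nanog-cKO lines, with −1.40 and −1.04. Fosb went from 0 to 12 reads in the ESC libraries to 36 to 111 reads in the untreated L-EPSC libraries of the 3 lines.

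With Dox 3 of the 6 were called in the Oct4-cKO line and 5 of the 6 in the Sox2-cKO line, all higher, beside 19.3% and 15.1% of all genes. Fosb was at 97.6 and 99.7 without and 373 and 373 with Dox in the Oct4-cKO line and at 48.6 and 37.9 without and 416 and 401 with Dox in the Sox2-cKO line. Fosl2 and Jund rose in both lines, with log2 fold changes of 1.94 and 1.65 for Fosl2 and 1.48 and 1.61 for Jund. In the Nanog-cKO line limma called 0 of the 6, beside 5.39% of all genes, 2 of them had an unadjusted p under 0.05, and Fosb was at 82.0 and 36.7 without and 71.1 and 88.8 with Dox. In J1 Fos rose in both EPSCs, from 23.4 and 22.1 in ESCs to 149 and 108 in D-EPSCs and 51.4 and 50.6 in L-EPSCs, and Fosl2 fell, with log2 fold changes of −1.27 and −1.52.

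The values of Il6st in J1 ESCs (mean 2316) and in the tet-off ESCs (1249.7, 1303 and 1092), and of Pim3 (824 against 3249, 2802 and 2700.1), stand side by side from tables that were normalized separately, and their difference was not tested.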
